A study of Mus musculus with 16 samples.

Results

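The genes of platelet-derived growth factor (PDGF) signalling and of the fibroblast growth factor (FGF) receptors were followed in MEC1 cells, an established mouse line from the epicardium, the mesothelial sheet on the surface of the heart. The 9 genes were taken by symbol from the 46348 genes of the deposited table: the receptors Pdgfra, Pdgfrb, Fgfr1 and Fgfr2, the PDGF ligands Pdgfa, Pdgfb, Pdgfc and Pdgfd, and the FGF ligand Fgf2. All 9 passed the filter on low counts and are among the 15494 genes tested. The study sequenced poly(A)-enriched RNA from 16 libraries and asked, by its title, how a pathway of PRMT1, Mdm4 and p53 acts in epicardial invasion and fate. PRMT1 is a protein arginine methyltransferase (gene Prmt1), and p53 is the transcription factor encoded by Trp53.

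The 8 groups had 2 libraries each. They were cells given PRMT1 siRNA and p53 siRNA together with TGF-beta, the same pair of siRNAs without TGF-beta, p53 siRNA with and without TGF-beta, PRMT1 siRNA with and without TGF-beta, and control siRNA with and without TGF-beta. All groups came from the 1 cell line and all cells received an siRNA. The siRNA amounts and the dose and time of TGF-beta were not given in the sources used here. The 2 libraries of a group are called biological replicates in the design, with nothing on whether they were separate cultures, so a p-value measures the spread between libraries, which may be technical.

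PDGF ligands are secreted dimers that bring 2 receptor tyrosine kinases together. PDGFRA binds PDGF-A, PDGF-B and PDGF-C, and PDGFRB binds chiefly PDGF-B and PDGF-D. FGFs bind FGF receptors together with heparan sulfate, and both receptor families signal through adaptors to the MAP kinase and PI3 kinase pathways. In mice, epicardial cells that leave the surface of the heart give rise to cardiac fibroblasts and coronary smooth muscle, and Pdgfra is known for its need in the fibroblasts and Pdgfrb for its need in the smooth muscle.

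With TGF-beta, Pdgfra and Fgfr2 fell under all 4 siRNA treatments, Pdgfd fell under 3 of the 4, and Pdgfc rose under all 4. These 4 members have upstream windows clear of annotated exons, and their promoter sequences are given. They are the 250 bases upstream of the RefSeq start in build GRCm38.p6 (mm10), on the strand of the gene, at chr5:75152001-75152250 (+) for Pdgfra, chr7:130266809-130267058 (-) for Fgfr2, chr9:6168236-6168485 (+) for Pdgfd and chr3:81036166-81036415 (+) for Pdgfc. The Pdgfa and Fgf2 windows overlap annotated exons, and their letters are not printed. For Pdgfrb, Pdgfb and Fgfr1, which rose under all 4 siRNA treatments, no window is given. Capitals mark CAGAC or its reverse complement GTCTG, the letters of a SMAD-binding element, which is bound by the SMAD proteins that TGF-beta receptors activate.
Pdgfra: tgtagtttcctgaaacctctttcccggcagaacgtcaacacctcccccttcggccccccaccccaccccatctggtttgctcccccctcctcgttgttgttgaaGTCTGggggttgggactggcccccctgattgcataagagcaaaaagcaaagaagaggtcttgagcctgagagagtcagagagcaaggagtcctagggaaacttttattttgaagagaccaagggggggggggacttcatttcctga
Fgfr2: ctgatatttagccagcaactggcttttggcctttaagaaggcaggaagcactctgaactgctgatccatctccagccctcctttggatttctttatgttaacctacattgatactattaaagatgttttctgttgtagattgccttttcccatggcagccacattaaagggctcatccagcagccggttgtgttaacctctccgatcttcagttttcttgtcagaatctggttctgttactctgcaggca
Pdgfd: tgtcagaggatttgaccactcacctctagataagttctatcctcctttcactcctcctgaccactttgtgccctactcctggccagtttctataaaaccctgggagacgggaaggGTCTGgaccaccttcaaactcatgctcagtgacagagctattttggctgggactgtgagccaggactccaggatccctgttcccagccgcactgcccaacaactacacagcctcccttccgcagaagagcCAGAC
Pdgfc: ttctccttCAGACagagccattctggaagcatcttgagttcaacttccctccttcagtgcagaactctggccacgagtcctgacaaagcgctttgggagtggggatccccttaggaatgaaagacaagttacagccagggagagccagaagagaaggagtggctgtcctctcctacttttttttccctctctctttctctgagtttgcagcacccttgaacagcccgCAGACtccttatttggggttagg
Pdgfc held 2 matches, Pdgfd held 2, Pdgfra held 1 and Fgfr2 held 0. Of 32851 RefSeq promoters of the same length, 42.2% held at least 1 match on either strand, so a match is common, and it is a description of letters and not a site. The TEAD letters GGAATG, on either strand, were found once in the Pdgfc window and in none of the other 3 windows, against 12.6% of all promoters. GGGCGG, a GC box, and TGANTCA, an AP-1 element, were found in none of these 4 windows on either strand, against 32.7% and 6.75% of all promoters. Of the windows not printed, those of Pdgfa, which rose under all 4 siRNA treatments, held 0 CAGAC or GTCTG matches and 1 and 2 GC boxes. That of Fgf2 held 1 match and 1 GC box. The windows shown are therefore not all those of the members.

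Library totals were 19617874 to 30759317 counts, and levels are given as CPM, the counts scaled to the library total with TMM factors. The siRNAs lowered their targets: Prmt1 was at 62.5 to 78.3 CPM in the 8 libraries with PRMT1 siRNA and at 143 to 272 CPM in the other 8, and Trp53 was at 54.2 to 90.7 CPM in the 8 libraries with p53 siRNA and at 128 to 192 CPM in the other 8. The fall of Trp53 was not equal: it was at 88.1 to 90.7 CPM with both siRNAs and at 54.2 to 73.6 CPM with p53 siRNA alone. Comparisons that involve both siRNAs carry this difference. Replicate 2 of p53 siRNA with TGF-beta stood apart from its partner, with a root mean square log2 difference of 0.805 against 0.341 to 0.426 in the other 7 pairs, so results that rest on it are also given from 15 libraries. Replicate 1 minus replicate 2 changed by 0.24 log2 units per doubling of transcript length, against -0.06 to 0.01 in the other 7 pairs. Replicate 2 also had the largest share of the rRNA gene Rn18s-rs5 (5.75%, others 0.557% to 4.35%). It had the fewest genes detected (20534, others 21552 to 22496). The part of these traits in the member values was not tested. Of 14 mesothelial markers, 11 were above 5 CPM in at least 1 group, among them Wt1, Tbx18, Tcf21 and Upk3b. The others, Krt19, Krt8 and Aldh1a2, reached at most 1.59, 1.59 and 1.14 CPM in any library. The summed level of all 14 was 472 to 548 CPM over the libraries with TGF-beta and 1769 to 2641 CPM over those without. Under control siRNA, 11 of the 14 were called lower with TGF-beta, 1 was called higher and 2 did not pass. There Tbx18 was at 21.2 and 21.9 CPM with TGF-beta, against 17.7 and 17.9 CPM without. Krt18 was at 102 and 97.4 CPM, against 95.1 and 87.6 CPM. Of the markers of other cell types, 0 of 10 haematopoietic, 1 of 10 endothelial (Kdr), 1 of 11 cardiomyocyte (Tnnt2) and 4 of 8 mural genes (Rgs5, Kcnj8, Notch3 and Mcam) were above 5 CPM in any group, while 8 haematopoietic, 7 endothelial, 8 cardiomyocyte and 2 mural genes (Cspg4 and Higd1b) stayed below 0.5 CPM. Mural markers were split under control siRNA, where 2 of the 6 tested rose (Mcam and Rgs5), 2 fell (Kcnj8 and Abcc9) and the median log2 change was -0.13. Kcnj8 was at 0.0 to 0.0628 CPM with TGF-beta and 4.01 to 10.2 CPM without. The mural sum, in which Mcam and Rgs5 were higher with TGF-beta, was 76.3 to 105 CPM with TGF-beta and 36.9 to 67.6 CPM without, and the cardiomyocyte sum 52.1 to 141 CPM with TGF-beta and 3.55 to 25.0 CPM without. Tnnt2 made up most of the cardiomyocyte sum, and no other gene of that list exceeded 1.4 CPM in any library. The endothelial sum was 7.25 to 9.80 CPM with TGF-beta and 4.60 to 9.45 CPM without, and the haematopoietic sum 1.79 to 3.0 CPM with TGF-beta and 2.95 to 4.25 CPM without. The part of these markers in the results was not tested.

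TGF-beta changed 8 of the 9 genes in cells with both siRNAs, where 31.3% of all tested genes were called, 9 of 9 with p53 siRNA (45.3%), 8 of 9 with PRMT1 siRNA (32.5%) and 7 of 9 with control siRNA (38.4%). A call is an adjusted p under 0.05 in edgeR's quasi-likelihood test with Benjamini-Hochberg adjustment over all tested genes, and values after ± are standard errors of log2 changes. With control siRNA, 5 members rose and 2 fell, against 17.8% of all genes higher and 20.6% lower. Pdgfb, Pdgfrb, Pdgfa, Fgfr1 and Pdgfc rose and Pdgfra and Fgfr2 fell under all 4 siRNA treatments, while Pdgfd and Fgf2 passed under some of them.

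**Figure D1:**
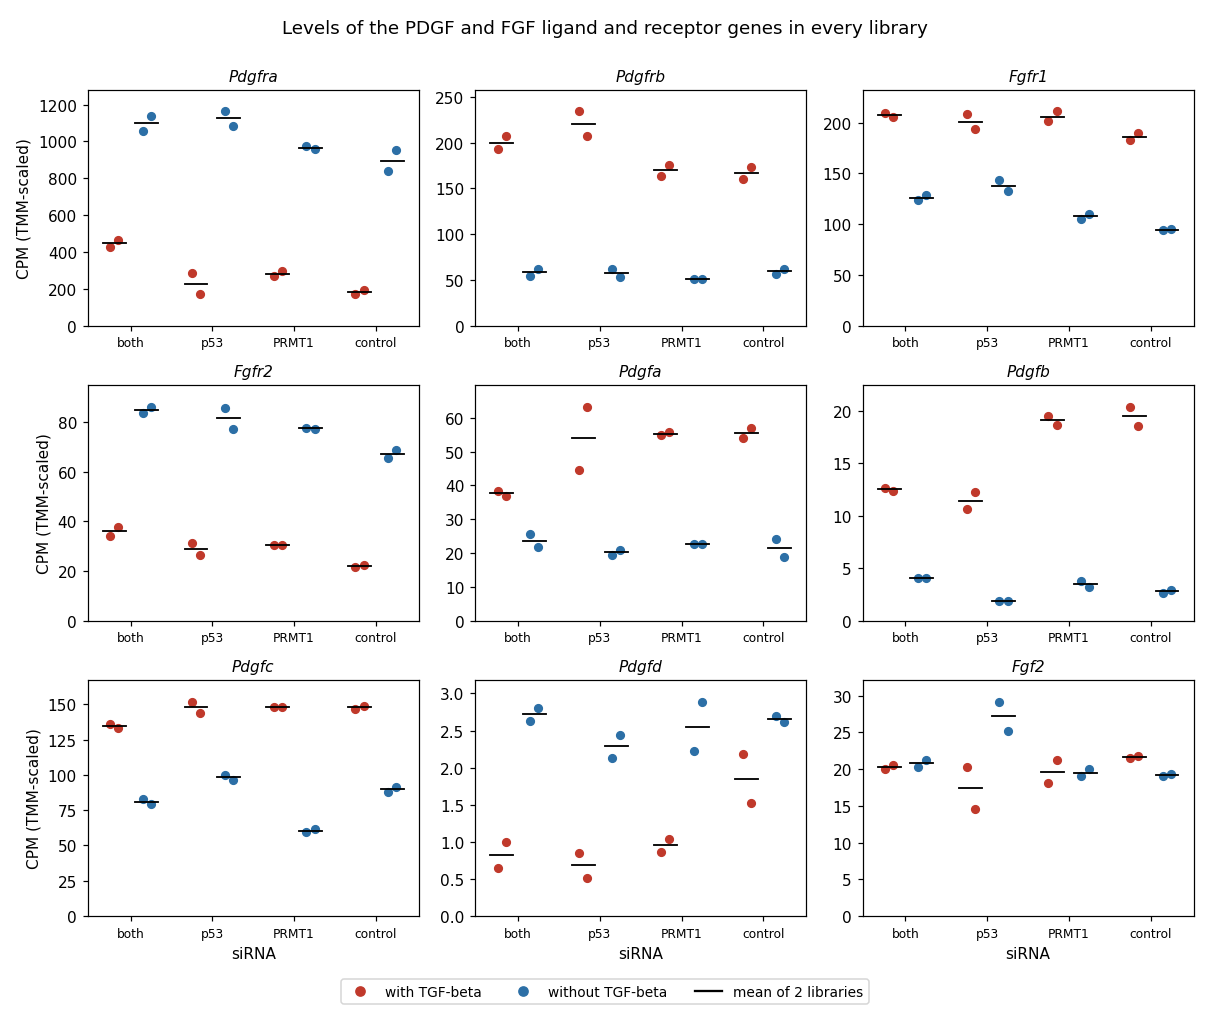
Level of each gene in every library, in TMM-scaled CPM on a linear axis from 0, by siRNA from left to right (both, p53, PRMT1, control), with TGF-beta in red left of without in blue; each point is 1 library and each bar the mean of 2. Red lies below blue under each siRNA for Pdgfra and Fgfr2 and above blue for Pdgfrb, Fgfr1, Pdgfa, Pdgfb and Pdgfc, with no overlap between all 8 red and all 8 blue points of these genes.

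Pdgfra, the receptor for PDGF-A and PDGF-C (chr5:75152292-75198216, + strand, mm10 as in the table), fell under all 4 siRNA treatments. Pdgfra with both siRNAs was at 429 and 466 CPM with TGF-beta, against 1059 and 1140.5 CPM without, a log2 change of -1.30 ± 0.18 (adjusted p = 0.000179). With p53 siRNA it was at 284 and 171 CPM with TGF-beta, against 1163 and 1086 CPM without (-2.31 ± 0.19, adjusted p = 1.25e-06), and the change was -1.99 ± 0.11 in the fit of 15 libraries. All 8 libraries with TGF-beta were below all 8 without it. Pdgfra with PRMT1 siRNA was at 268 and 295 CPM with TGF-beta, against 975 and 959 CPM without (-1.78 ± 0.18, adjusted p = 1.53e-05). Control siRNA gave 171 and 192 CPM with TGF-beta, against 837 and 951 CPM without (-2.30 ± 0.19, adjusted p = 1.6e-06). By mean level the groups ran, from the highest, p53 siRNA, both siRNAs, PRMT1 siRNA and control siRNA without TGF-beta, then both siRNAs, PRMT1 siRNA, p53 siRNA and control siRNA with TGF-beta. Neighbours in that order overlapped between the first pair and among the last 3.

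Pdgfrb, the receptor for PDGF-B and PDGF-D (chromosome 18), moved the other way. Pdgfrb with both siRNAs was at 193 and 207 CPM with TGF-beta, against 54.5 and 62.0 CPM without, a log2 change of 1.78 ± 0.10 (adjusted p = 1.25e-07). With p53 siRNA it was at 234 and 207 CPM with TGF-beta, against 61.8 and 53.1 CPM without (1.94 ± 0.10, adjusted p = 3.81e-08; 2.02 ± 0.092 with 15 libraries). All 8 libraries with TGF-beta lay between 160.4 and 234 CPM and all 8 without between 51.1 and 62.0 CPM. Pdgfrb with PRMT1 siRNA was at 164 and 176 CPM with TGF-beta, against 51.1 and 51.4 CPM without (1.73 ± 0.10, adjusted p = 1.55e-07). Under control siRNA it was at 160.4 and 173 CPM with TGF-beta, against 56.8 and 61.9 CPM without (1.49 ± 0.10, adjusted p = 3.87e-07). Among the treated groups, both siRNAs and p53 siRNA overlapped each other, as did PRMT1 and control siRNA, and the first pair lay above the second.

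Fgfr2, an FGF receptor that in mice serves epithelial and mesenchymal cells through splice forms, fell. The table gives it a span of 2960901 bases, chr7:130162451-133123351 (- strand), and the promoter window given above lies inside that span. The span ends 1 base beyond that in GENCODE M21, as do those of Pdgfra, Pdgfrb, Pdgfa, Pdgfc and Fgf2. Fgfr2 with both siRNAs was at 34.3 and 37.7 CPM with TGF-beta, against 83.8 and 86.3 CPM without, a log2 change of -1.24 ± 0.091 (adjusted p = 8.41e-07). With p53 siRNA it was at 31.5 and 26.3 CPM with TGF-beta, against 85.9 and 77.2 CPM without (-1.5 ± 0.093, adjusted p = 1.3e-07; -1.37 ± 0.083 with 15 libraries). No library with TGF-beta reached the lowest one without it, at 65.5 CPM. Fgfr2 with PRMT1 siRNA was at 30.4 and 30.5 CPM with TGF-beta, against 77.8 and 77.2 CPM without (-1.35 ± 0.092, adjusted p = 4.6e-07). Control siRNA gave 21.5 and 22.6 CPM with TGF-beta, against 65.5 and 68.7 CPM without (-1.60 ± 0.094, adjusted p = 9.71e-08). Of the exon bases of Fgfr2, 3.04% are shared with Ctbp2 on the same strand, and Ctbp2 itself changed by 0.35 ± 0.073 with TGF-beta under control siRNA (adjusted p = 0.00254), in the opposite direction. The mesothelial marker sum was lower in the same libraries as Pdgfra and Fgfr2.

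Fgfr1 (chr8:25513654-25575715, + strand), an FGF receptor of mesenchymal cells, rose. Fgfr1 with both siRNAs was at 209 and 206 CPM with TGF-beta, against 124 and 129 CPM without, a log2 change of 0.72 ± 0.069 (adjusted p = 8.48e-06). With p53 siRNA it was at 208 and 194 CPM with TGF-beta, against 143 and 133 CPM without (0.54 ± 0.069, adjusted p = 5.19e-05; 0.59 ± 0.062 with 15 libraries). With only those 4 libraries in the fit the change did not pass (adjusted p = 0.0928). The 8 libraries with TGF-beta lay between 183 and 211 CPM, a narrower range than the 93.8 to 143 CPM of the 8 without. Fgfr1 with PRMT1 siRNA was at 202 and 211 CPM with TGF-beta, against 105 and 110.2 CPM without (0.94 ± 0.069, adjusted p = 8.9e-07). With control siRNA it was at 183 and 189.8 CPM with TGF-beta, against 93.8 and 94.8 CPM without (0.98 ± 0.069, adjusted p = 4.76e-07).

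Set against each other within a library, Pdgfra came close to Pdgfrb or lay below it with TGF-beta, and Fgfr2 and Fgfr1 drew apart. Per kb of exon, which makes genes of different length comparable, the level of Pdgfra divided by that of Pdgfrb was 0.452 to 1.23 in the 8 libraries with TGF-beta and 8.05 to 11.2 in the 8 without. With TGF-beta the ratio was above 1 in both libraries with both siRNAs, at 1.22 and 1.23, and below 1 in the other 6. With TGF-beta minus without, the mean log2 ratio changed by -3.67. Fgfr2 over Fgfr1 was 0.113 to 0.175 with TGF-beta and 0.556 to 0.706 without, a log2 change of -2.22. Both ratios pair genes that were called in opposite directions above, so they only describe those changes, and no p-value is given for them. In bulk RNA, fewer cells of a kind and less RNA per cell cannot be told apart.

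**Figure D2:**
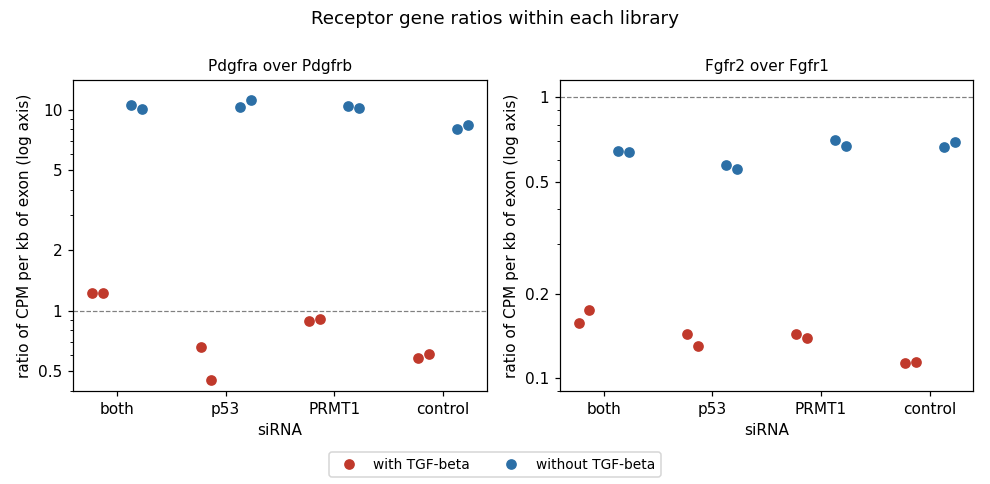
Ratio of the level per kb of exon of Pdgfra over Pdgfrb (left) and Fgfr2 over Fgfr1 (right) in each library, on log axes, by siRNA, with TGF-beta in red left of without in blue; the dashed line marks a ratio of 1. On the left only the 2 libraries with both siRNAs and TGF-beta lie above 1 among the treated, at 1.22 and 1.23, and all 8 untreated lie at 8.05 or more.

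Pdgfb, whose product binds both PDGF receptors (chr15:79995900-80014809, - strand), had the largest log2 change of the members under control siRNA. Pdgfb with both siRNAs was at 12.6 and 12.4 CPM with TGF-beta, against 4.10 and 4.09 CPM without, a log2 change of 1.61 ± 0.11 (adjusted p = 6.56e-07). With p53 siRNA it was at 10.6 and 12.3 CPM with TGF-beta, against 1.91 and 1.84 CPM without (2.61 ± 0.13, adjusted p = 2.12e-08; 2.49 ± 0.14 with 15 libraries). Levels with TGF-beta fell into separate ranges, at 10.6 to 12.6 CPM in the 4 libraries that had p53 siRNA and at 18.5 to 20.4 CPM in the 4 that had not. Pdgfb with PRMT1 siRNA was at 19.5 and 18.6 CPM with TGF-beta, against 3.82 and 3.22 CPM without (2.44 ± 0.12, adjusted p = 2.51e-08). Control siRNA gave 20.4 and 18.5 CPM with TGF-beta, against 2.65 and 2.95 CPM without (2.79 ± 0.12, adjusted p = 8.94e-09).

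Pdgfa, a ligand of PDGFRA (chr5:138976014-138997371, - strand), rose. Pdgfa with both siRNAs was at 38.4 and 37.0 CPM with TGF-beta, against 25.7 and 21.7 CPM without, a log2 change of 0.67 ± 0.15 (adjusted p = 0.00579), and without replicate 2 of both siRNAs without TGF-beta this was 0.55 and did not pass (adjusted p = 0.062). Under p53 siRNA it was at 44.6 and 63.3 CPM with TGF-beta, against a mean of 20.2 ± 1.21 CPM without (SD, n = 2; log2 change 1.42 ± 0.16, adjusted p = 1.69e-05), and the change was 1.14 ± 0.12 with 15 libraries, without the one at 63.3 CPM. No library with TGF-beta overlapped one without it, and those with both siRNAs were the lowest of the treated. Pdgfa with PRMT1 siRNA was at 54.8 and 55.9 CPM with TGF-beta, against 22.7 and 22.8 CPM without (1.28 ± 0.15, adjusted p = 5.52e-05). Control siRNA gave 54.1 and 56.9 CPM with TGF-beta, against 24.1 and 18.9 CPM without (1.37 ± 0.16, adjusted p = 2.71e-05). Of the exon bases of Pdgfa, 26.1% overlap 6330403L08Rik on the opposite strand, the strand used in counting was not given, and 6330403L08Rik changed by 0.92 ± 0.12 with TGF-beta under control siRNA (adjusted p = 9.83e-05).

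Pdgfc (chr3:81036416-81214041, + strand), a ligand of PDGFRA that is secreted in a latent form, rose. Pdgfc with both siRNAs was at 136 and 133 CPM with TGF-beta, against 83.0 and 79.1 CPM without, a log2 change of 0.73 ± 0.064 (adjusted p = 3.72e-06). Under p53 siRNA it was at 152 and 144 CPM with TGF-beta, against 100.3 and 96.4 CPM without (0.59 ± 0.064, adjusted p = 1.5e-05; 0.63 ± 0.060 with 15 libraries). With only those 4 libraries in the fit the change did not pass (adjusted p = 0.0697). All 8 libraries with TGF-beta were within 133 to 152 CPM, and the groups without it did not overlap each other: p53 siRNA was highest, then control siRNA, both siRNAs and PRMT1 siRNA. Pdgfc with PRMT1 siRNA was at 148 and 148 CPM with TGF-beta, against 59.4 and 61.7 CPM without (1.29 ± 0.065, adjusted p = 3.63e-08). Control siRNA gave 147 and 149 CPM with TGF-beta, against 88.0 and 91.6 CPM without (0.72 ± 0.064, adjusted p = 3.29e-06).

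Pdgfd, a latent ligand of PDGFRB (chr9:6168612-6378844, + strand), had the lowest level per kb of exon of the 9 genes and lay at 0.516 to 2.89 CPM. Pdgfd with both siRNAs was at 0.643 and 1.0 CPM with TGF-beta, against 2.63 and 2.81 CPM without, a log2 change of -1.70 ± 0.27 (adjusted p = 0.000504). Under p53 siRNA it was at 0.844 and 0.516 CPM with TGF-beta, against 2.13 and 2.44 CPM without (-1.73 ± 0.30, adjusted p = 0.000631; -1.44 ± 0.35 with 15 libraries, adjusted p = 0.00386). The 6 libraries with TGF-beta and PRMT1 siRNA, p53 siRNA or both were below every library without TGF-beta. Pdgfd with PRMT1 siRNA was at 0.868 and 1.04 CPM with TGF-beta, against 2.22 and 2.89 CPM without (-1.41 ± 0.27, adjusted p = 0.00206). Under control siRNA it was at 2.18 and 1.52 CPM with TGF-beta, against 2.70 and 2.61 CPM without, and the change of -0.53 ± 0.26 did not pass (adjusted p = 0.136). None of the differences between these responses and that under control siRNA passed the test (interaction adjusted p = 0.244 for both siRNAs, 0.195 for p53 siRNA and 0.218 for PRMT1 siRNA).

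Fgf2, an FGF that leaves cells without a signal peptide (chr3:37348346-37410109, + strand), passed under 1 of the 4 siRNA treatments. Fgf2 with both siRNAs averaged 20.3 ± 0.391 CPM with TGF-beta and 20.8 ± 0.675 CPM without (SD, n = 2 each), and the log2 change of -0.04 ± 0.13 did not pass (adjusted p = 0.868). With p53 siRNA it fell, at 20.3 and 14.5 CPM with TGF-beta against 29.2 and 25.2 CPM without (-0.64 ± 0.14, adjusted p = 0.00229). Without the library at 14.5 CPM, which is the one that stands apart, the change was -0.42 ± 0.11 (adjusted p = 0.00469), and with only those 4 libraries in the fit it did not pass (adjusted p = 0.132). Fgf2 with PRMT1 siRNA averaged 19.6 ± 2.16 CPM with TGF-beta and 19.5 ± 0.708 CPM without (SD, n = 2 each), and did not pass (log2 change 0.02 ± 0.13, adjusted p = 0.94). Control siRNA gave 21.5 and 21.8 CPM with TGF-beta, against 19.1 and 19.3 CPM without (0.17 ± 0.14, adjusted p = 0.352). The p53 siRNA libraries without TGF-beta were the highest of all 16, and Nudt6 overlaps 9.44% of the exon bases of Fgf2 on the opposite strand.

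**Figure D3:**
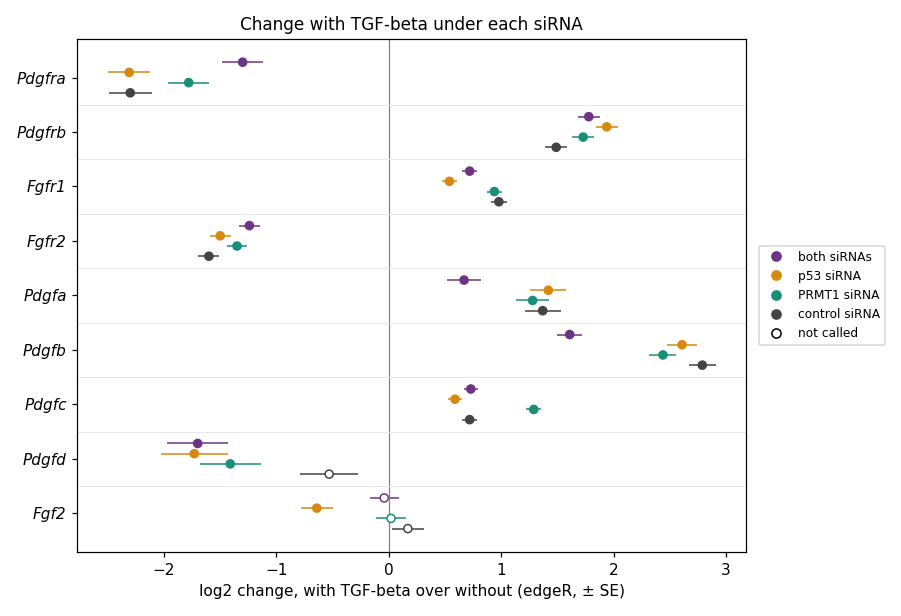
Log2 change with TGF-beta over without for each gene, one point per siRNA treatment (both, p53, PRMT1 and control, from top to bottom within a gene), with bars of 1 SE from edgeR over 16 libraries; open points did not pass an adjusted p under 0.05. The points for Pdgfra run from -2.31 to -1.30 and those for Pdgfb from 1.61 to 2.79, and the open points are Pdgfd under control siRNA and Fgf2 under 3 of the 4 treatments.

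Between genes, the mean level per kb over the 16 libraries was 65.1 CPM per kb for Pdgfra, 22.4 for Pdgfrb, 16.1 for Fgfr1 and 5.19 for Fgfr2. Among the ligands it was 22.3 CPM per kb for Pdgfc, 11.6 for Pdgfa, 3.05 for Fgf2, 2.25 for Pdgfb and 0.576 for Pdgfd. Pdgfb was the second lowest of the 9 genes by level per kb. These levels use GENCODE M21 exon lengths, which may differ from the annotation the authors counted on.

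Without TGF-beta, 1 or 2 of the 9 genes were called under each siRNA treatment, and 4 of 9 were at an unadjusted p under 0.05 under each. PRMT1 siRNA lowered Pdgfc, at 59.4 and 61.7 CPM against 88.0 and 91.6 CPM with control siRNA (-0.57 ± 0.064, adjusted p = 0.00035), and no other member passed (1 of 9, with 10.3% of all genes called). p53 siRNA raised Fgfr1, at 143 and 133 CPM against 93.8 and 94.8 CPM with control siRNA (0.55 ± 0.069, adjusted p = 0.00204; 1 of 9, 2.47% of all genes). With both siRNAs, Fgfr1 rose by 0.42 ± 0.069 (adjusted p = 0.00688), and Pdgfb rose by 0.55 ± 0.13 (adjusted p = 0.0396; 2 of 9, 4.45% of all genes). The Pdgfb libraries with both siRNAs, at 4.10 and 4.09 CPM, were above those with control siRNA, at 2.65 and 2.95 CPM. Neither call with both siRNAs was kept when any 1 of the 4 libraries was left out. The Pdgfb change was then 0.47 to 0.61 (adjusted p = 0.143 to 0.242) and the Fgfr1 change 0.40 to 0.44 (adjusted p = 0.0505 to 0.0752). These 3 comparisons share the control libraries.

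In the 15-library fit, in which more genes passed in each of these comparisons, members without TGF-beta numbered 4 of 9 with both siRNAs (18.7% of all genes), 5 of 9 with p53 siRNA (11.7%) and 3 of 9 with PRMT1 siRNA (26.4%). Those added under p53 siRNA were Pdgfra (0.32 ± 0.081, adjusted p = 0.0218), Fgfr2 (0.26 ± 0.061, adjusted p = 0.0125), Fgf2 (0.49 ± 0.086, adjusted p = 0.00266) and Pdgfb (-0.59 ± 0.16, adjusted p = 0.0327). Pdgfb was at 1.91 and 1.84 CPM with p53 siRNA, against 2.65 and 2.95 CPM with control siRNA. Under both siRNAs Pdgfra (0.29 ± 0.081, adjusted p = 0.0232) and Fgfr2 (0.33 ± 0.061, adjusted p = 0.00216) were added. Under PRMT1 siRNA Fgfr1 (0.17 ± 0.053, adjusted p = 0.0269) and Fgfr2 (0.19 ± 0.061, adjusted p = 0.0331) were added.

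In the presence of TGF-beta, cells with both siRNAs had more Pdgfra and Fgfr2 and less Pdgfa, Pdgfb and Pdgfd than cells with control siRNA (5 of 9, 13.1% of all genes). Pdgfra was at 429 and 466 CPM, against 171 and 192 CPM with control siRNA (1.30 ± 0.18, adjusted p = 0.000931). Fgfr2 was at 34.3 and 37.7 CPM, against 21.5 and 22.6 CPM (0.71 ± 0.093, adjusted p = 0.000617). In both genes the treated cells with control siRNA had the lowest mean level of all 8 groups, and those with both siRNAs the highest of the 4 treated groups. Pdgfb changed by -0.64 ± 0.10 (adjusted p = 0.00256), Pdgfa by -0.56 ± 0.15 (adjusted p = 0.0317) and Pdgfd by -1.14 ± 0.29 (adjusted p = 0.0241). The Pdgfa call was lost without any 1 of the 4 libraries (changes of -0.59 to -0.52, adjusted p = 0.12 to 0.199), and the Pdgfd call without replicate 1 of control siRNA with TGF-beta (-0.87, adjusted p = 0.193) or replicate 1 of both siRNAs with TGF-beta (-0.85, adjusted p = 0.179). In the 15-library fit Pdgfrb (0.26 ± 0.076, adjusted p = 0.018) and Fgfr1 (0.16 ± 0.051, adjusted p = 0.0342) were added, making 7 of 9 with 29.9% of all genes.

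**Figure D4:**
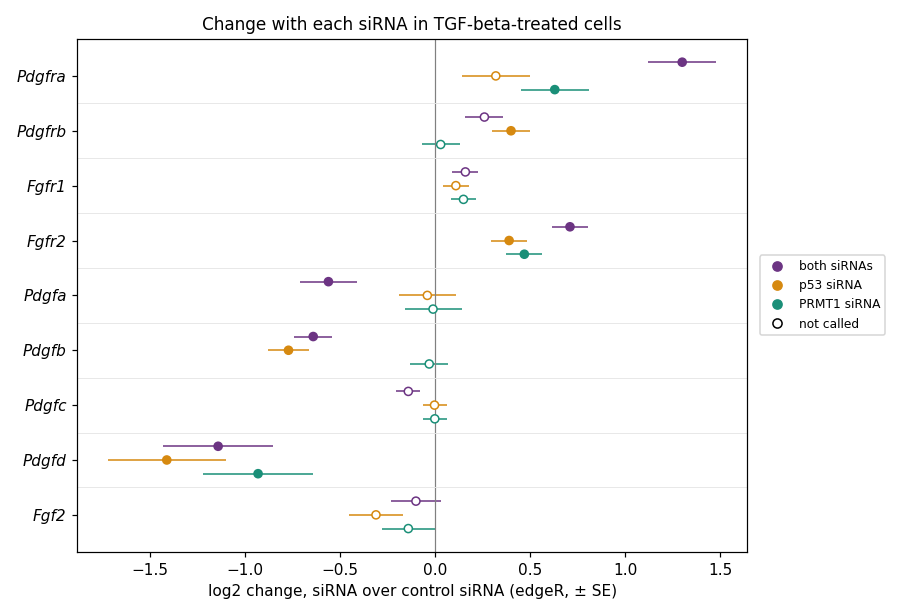
Log2 change with each siRNA over control siRNA in cells that all received TGF-beta, one point per siRNA treatment (both, p53 and PRMT1, from top to bottom within a gene), with bars of 1 SE from edgeR over 16 libraries; open points did not pass an adjusted p under 0.05, and the treatments share the 2 control libraries. Fgfr2 lies above 0 and Pdgfd below 0 under all 3 treatments, and Pdgfb lies at -0.77 and -0.64 with p53 siRNA alone and with both siRNAs, against -0.03 with PRMT1 siRNA.

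With TGF-beta, p53 siRNA changed 4 of 9 members (5.21% of all genes), and all 4 calls were lost with only the 4 libraries of these groups in the fit (adjusted p = 0.694 for each). In that fit 0 of all 14105 genes tested were called, so the loss was not particular to the members. Leaving out the treated p53 siRNA library numbered 1 gave 5 members called and 53.5% of all genes. Pdgfb was at 10.6 and 12.3 CPM, against 20.4 and 18.5 CPM with control siRNA (-0.77 ± 0.11, adjusted p = 0.00255; -0.89 ± 0.11, adjusted p = 0.000608 with 15 libraries). Pdgfrb was at 234 and 207 CPM, against 160.4 and 173 CPM (0.40 ± 0.10, adjusted p = 0.0416; 0.48 ± 0.092, adjusted p = 0.00832 with 15 libraries). Fgfr2 was at 31.5 and 26.3 CPM, against 21.5 and 22.6 CPM (0.39 ± 0.095, adjusted p = 0.0395; 0.51 ± 0.087, adjusted p = 0.00434 with 15 libraries). None of these 3 genes overlapped between the groups. Without replicate 1 or replicate 2 of control siRNA with TGF-beta, the Pdgfrb change was 0.35 (adjusted p = 0.255) or 0.46 (adjusted p = 0.127), and the Fgfr2 change was 0.36 (adjusted p = 0.233) or 0.43 (adjusted p = 0.141).

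Pdgfd and Pdgfra turned on the library that stands apart. Pdgfd was at 0.844 and 0.516 CPM with p53 siRNA and TGF-beta, against 2.18 and 1.52 CPM with control siRNA (-1.41 ± 0.31, adjusted p = 0.0273), and without the library at 0.516 CPM its change did not pass (-1.11 ± 0.36, adjusted p = 0.119). It was also lost without replicate 1 (-1.15, adjusted p = 0.187) or replicate 2 (-1.66, adjusted p = 0.0525) of control siRNA with TGF-beta. Pdgfra was at 284 and 171 CPM, against 171 and 192 CPM with control siRNA. Its change of 0.32 ± 0.18 did not pass with 16 libraries (adjusted p = 0.241) and passed without the second of these (0.64 ± 0.099, adjusted p = 0.00219). In the 15-library fit 4 of 9 members were called, with 4.10% of all genes.

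With TGF-beta, PRMT1 siRNA changed 3 of 9 members, where 15.7% of all genes were called. Fgfr2 was at 30.4 and 30.5 CPM, against 21.5 and 22.6 CPM with control siRNA (0.47 ± 0.094, adjusted p = 0.0081). Pdgfra was at 268 and 295 CPM, against 171 and 192 CPM (0.63 ± 0.18, adjusted p = 0.0371; 0.62 ± 0.083, adjusted p = 7.99e-05 with 15 libraries). Pdgfd was at 0.868 and 1.04 CPM, against 2.18 and 1.52 CPM (-0.93 ± 0.29, adjusted p = 0.0477). None of the 3 genes overlapped between the groups. The Pdgfra and Pdgfd calls were lost when any 1 of the 4 libraries was left out, with Pdgfra changes of 0.55 to 0.72 (adjusted p = 0.102 to 0.209) and Pdgfd changes of -1.18 to -0.67 (adjusted p = 0.0667 to 0.276). The Fgfr2 call was lost without replicate 1 of control siRNA with TGF-beta (0.43, adjusted p = 0.073) and without replicate 1 (0.47, adjusted p = 0.0521) or replicate 2 (0.47, adjusted p = 0.0573) of PRMT1 siRNA with TGF-beta. The remaining 6 members, Pdgfrb, Pdgfa, Pdgfb, Pdgfc, Fgfr1 and Fgf2, changed by -0.14 to 0.15 and did not pass. In the 15-library fit Fgfr1 was added (0.14 ± 0.051, adjusted p = 0.0422), making 4 of 9 with 41.4% of all genes.

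Whether p53 siRNA altered cells that already had PRMT1 siRNA was tested by setting both siRNAs against PRMT1 siRNA. Without TGF-beta, Pdgfc was at 83.0 and 79.1 CPM with both siRNAs, against 59.4 and 61.7 CPM with PRMT1 siRNA (0.42 ± 0.064, adjusted p = 0.0191), the 1 member of 9 called, with 0.865% of all genes. With TGF-beta, Pdgfb was at 12.6 and 12.4 CPM with both siRNAs, against 19.5 and 18.6 CPM with PRMT1 siRNA (-0.61 ± 0.10, adjusted p = 0.033; 1 of 9, 0.452% of all genes). The groups did not overlap in either gene. Both calls were lost when any 1 of their 4 libraries was left out: the Pdgfc change was then 0.38 to 0.46 (adjusted p = 0.113 to 0.319) and the Pdgfb change -0.64 to -0.58 (adjusted p = 0.192 to 0.475). In the 15-library fit, without TGF-beta, Fgfr1 (0.24 ± 0.053, adjusted p = 0.0072) was called beside Pdgfc (0.43 ± 0.052, adjusted p = 0.000279), 2 of 9 with 21.6% of all genes. With TGF-beta, Pdgfra (0.68 ± 0.082, adjusted p = 0.000514), Pdgfa (-0.55 ± 0.091, adjusted p = 0.00321) and Fgfr2 (0.25 ± 0.066, adjusted p = 0.0262) were called beside Pdgfb (-0.60 ± 0.085, adjusted p = 0.00126), 4 of 9 with 12.2% of all genes.

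The difference between TGF-beta responses was tested as an interaction in the same model. For both siRNAs against control siRNA, Pdgfb was the 1 member called (-1.19 ± 0.17, adjusted p = 0.00542), with 1.26% of all genes. For PRMT1 siRNA, Pdgfc was the 1 member called (0.57 ± 0.09, adjusted p = 0.00985), with 2.08% of all genes. That Pdgfc call was lost without replicate 2 of control siRNA (0.55, adjusted p = 0.0513), replicate 1 of control siRNA with TGF-beta (0.56, adjusted p = 0.0651), replicate 1 of PRMT1 siRNA (0.55, adjusted p = 0.0703) and replicate 1 (0.57, adjusted p = 0.051) or replicate 2 (0.57, adjusted p = 0.0634) of PRMT1 siRNA with TGF-beta. At an unadjusted p under 0.05 were 6 of 9 members for both siRNAs, 4 of 9 for p53 siRNA and 2 of 9 for PRMT1 siRNA. For p53 siRNA 0 of 9 passed in edgeR with 16 libraries (1.02% of all genes). The nearest were Fgfr1 (-0.44 ± 0.097, adjusted p = 0.0632) and Fgf2 (-0.82 ± 0.19, adjusted p = 0.0764), the 2 members that passed in DESeq2 (adjusted p = 0.000491 and 0.0133). With 15 libraries 3 passed, Fgfr1 (-0.38 ± 0.083, adjusted p = 0.0312), Fgf2 (-0.59 ± 0.14, adjusted p = 0.045) and Pdgfrb (0.54 ± 0.12, adjusted p = 0.0358), with 2.24% of all genes.

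The fall of Pdgfra was smaller with both siRNAs than with control siRNA, a difference of 1.0 ± 0.25 in log2 change. This did not pass in the main edgeR fit of 16 libraries (adjusted p = 0.105) and passed in 15 (1.01 ± 0.12, adjusted p = 0.000169). With all 16 libraries it passed in DESeq2 (1.0, adjusted p = 0.0118). It also passed in edgeR without the low-count filter (1.03, adjusted p = 9.94e-07) and with length offsets (0.98, adjusted p = 0.00134). With RLE factors or a replicate block it did not pass. In the 15-library fit the interaction with both siRNAs also passed for Pdgfa (-0.70 ± 0.14, adjusted p = 0.00993), Pdgfb (-1.18 ± 0.16, adjusted p = 0.000637) and Fgfr2 (0.37 ± 0.092, adjusted p = 0.0329), 4 of 9 with 4.81% of all genes. With PRMT1 siRNA it passed for Pdgfra (0.53 ± 0.12, adjusted p = 0.0048), Pdgfc (0.58 ± 0.072, adjusted p = 0.000186) and Fgfr2 (0.27 ± 0.094, adjusted p = 0.0455), 3 of 9 with 30.7% of all genes. The left-out library belongs to neither of these 2 comparisons and enters them through the shared estimate of spread, the filter and the scaling.

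Other genes of the pathway were read from lists by function in the response under control siRNA, where 38.4% of all tested genes were called (17.8% higher and 20.6% lower) with a median log2 change of -0.01. Of the other FGF ligands, 8 of 21 were tested, 2 rose and 4 fell (median -0.50). Fgf10, which in mice signals through an Fgfr2 splice form, was at 10.5 and 10.1 CPM with TGF-beta, against 33.1 and 39.0 CPM without (-1.81 ± 0.12, adjusted p = 3.58e-07). Fgf9, made by the epicardium of the mouse embryo, was at 0.708 and 0.805 CPM with TGF-beta, against 2.96 and 3.14 CPM without (-2.0 ± 0.26, adjusted p = 7.15e-05). Fgf18 was at 0.218 and 0.0 CPM with TGF-beta, against 6.68 and 5.47 CPM without, and was called lower. Fgf21, an endocrine FGF, was at 5.45 and 5.55 CPM with TGF-beta, against 0.841 and 0.967 CPM without (2.60 ± 0.33, adjusted p = 6.78e-05). All 4 of these genes kept their direction and call under the other 3 siRNA treatments.

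Of the other FGF receptors and the heparan sulfate and Klotho co-receptors, 11 of 14 were tested, 6 rose and 4 fell (median 0.74). The heparan sulfate carriers split: Sdc3 was at 47.6 and 46.2 CPM with TGF-beta, against 2.08 and 3.14 CPM without (4.17 ± 0.17, adjusted p = 6.3e-09), and Gpc1 was at 72.9 and 71.1 CPM, against 13.1 and 11.8 CPM (2.53 ± 0.085, adjusted p = 1.19e-09). Sdc4 was at 50.7 and 44.5 CPM with TGF-beta, against 194 and 180 CPM without (-1.98 ± 0.11, adjusted p = 4.69e-08), and Gpc3 was at 75.0 and 77.6 CPM, against 310.3 and 290.2 CPM (-1.98 ± 0.11, adjusted p = 7.85e-08). Of the proteases that cut PDGF precursors, 4 of 6 were tested, 2 rose and 1 fell (median 0.65). Furin, a convertase of PDGF-A and PDGF-B precursors, rose by 1.36 ± 0.077 (adjusted p = 7e-08), and Plau, which in human cells activates PDGF-D, rose by 1.36 ± 0.11 (adjusted p = 1.95e-06). Pcsk6 changed by -1.01 ± 0.099 (adjusted p = 7.82e-06), and Plat, which activates PDGF-C, changed by -0.06 ± 0.078 and did not pass (adjusted p = 0.61).

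Among VEGF ligands and receptors and the kinases related to PDGF receptors, 11 were tested, 7 rose and 2 fell (median 0.71), with Vegfa at 1.22 ± 0.078 (adjusted p = 1.93e-07), Vegfc at 1.45 ± 0.11 (adjusted p = 1.01e-06), Pgf at 1.97 ± 0.15 (adjusted p = 9.63e-07) and the receptor gene Flt1, whose product binds VEGF-A and PlGF, at 1.56 ± 0.18 (adjusted p = 2.93e-05). Of 23 adaptors and effectors, 6 rose, 4 fell and 13 did not pass (median 0.20), a share called close to that of all tested genes. Among those called were the adaptor genes Nck2 (0.58 ± 0.072, adjusted p = 5.22e-05), Gab1 (-0.64 ± 0.12, adjusted p = 0.000879) and Shc1 (-0.36 ± 0.066, adjusted p = 0.00107) and the transcription factor Stat3 (-0.67 ± 0.10, adjusted p = 0.000248). Of 20 tested MAP kinase feedback and target genes, 10 rose and 4 fell (median 0.25). Etv4, an ETS factor induced by FGF signalling, was at 26.5 and 24.4 CPM with TGF-beta, against 1.24 and 1.31 CPM without (4.32 ± 0.13, adjusted p = 3.88e-10). Fosl1, an AP-1 subunit, rose by 1.94 ± 0.13 (adjusted p = 3.87e-07) and Lrig3 by 1.5 ± 0.089 (adjusted p = 1.03e-07), while Ccnd1, cyclin D1, changed by -0.92 ± 0.059 (adjusted p = 2.07e-07).

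The genes whose levels ran most like each receptor were sought in the 10736 genes whose mean reached 5 CPM, by Pearson's r of log2 CPM over the 16 libraries. Since TGF-beta splits the libraries into 2 sets, r within the 8 treated and the 8 untreated libraries is given beside it, as a description. Acacb ran closest to Pdgfra (0.9913, with 0.986 within treated and 0.837 within untreated libraries), followed by 2010315B03Rik (0.984 and 0.982 within) and Tle3 (0.961 and 0.807). The member Fgfr2, left out of the search, had an r of 0.99 with Pdgfra over the 16 libraries. Itga11 ran closest to Pdgfrb (0.9951; 0.796 and 0.938 within), followed by Bmp1 (0.662 and 0.73) and Mamdc2 (0.826 and 0.456). C3 ran closest to Fgfr2 (0.9948; 0.962 and 0.897 within), followed by the mesothelial marker Wt1 (0.949 and 0.885) and Aldh6a1 (0.951 and 0.778). Sgk1 ran closest to Fgfr1 (0.9731), yet only at 0.36 within the treated libraries and 0.887 within the untreated, followed by Tmem151b (0.288 and 0.955) and Enpp1 (0.904 and 0.875).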

How the data were processed

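Poly(A)-enriched RNA of MEC1 cells was sequenced in 16 libraries, grouped here by their titles. Expected counts per gene were deposited by the authors, who used TopHat2 and Partek with build mm10, per the submitters' processing notes. Tool versions, strand, annotation and counting options were not given in the sources used here, and without strand the reads of overlapping genes cannot be told apart. Of the nonzero values 60% were within 0.01 of a whole number, so all were rounded first.

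The quasi-likelihood test of edgeR 4.0.16 (R 4.3.3) was run on 1 model of 8 group means over the 16 libraries, with TMM scaling, on the 15494 genes that passed filterByExpr. Each of 15 contrasts was adjusted with Benjamini-Hochberg over these genes. CPM per kb used GENCODE M21 exon lengths, matched for 42003 genes by symbol and 809 by synonym. Promoters are from RefSeq, GRCm38.p6.

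The members and lists were chosen with earlier results of these data known. Other genes named are the siRNA targets, up to 4 tested genes per list with the lowest adjusted p in the response under control siRNA, 3 look-alikes per receptor, markers above 5 CPM, and Ctbp2, Nudt6 and 6330403L08Rik, which share exon bases with members. Alternatives were DESeq2 1.42.0, no filter on low counts, RLE factors, a replicate block, only the groups of a contrast, each library left out in turn, 15 libraries (the TGF-beta library of p53 siRNA numbered 2 left out), and offsets for transcript length with 16 or 15 libraries. Counting error weighs most on Pdgfd and Fgf18, which have few counts.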

Additional observations from a re-analysis of the deposited data

Results flagged for a closer look

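In 2 members the response to TGF-beta itself differed between siRNA treatments by the interaction term. The response of Pdgfb was smaller with both siRNAs than with control siRNA, by a difference in log2 change of -1.19 (1.61 ± 0.11 against 2.79 ± 0.12), and the difference passed the test in edgeR (adjusted p = 0.00542). The groups with TGF-beta stood at 12.6 and 12.4 CPM with both siRNAs and at 20.4 and 18.5 CPM with control siRNA. Those without stood at 4.10 and 4.09 CPM against 2.65 and 2.95 CPM, so the difference lay in both. With p53 siRNA alone, the level with TGF-beta was also lower than with control siRNA (-0.77 ± 0.11). The interaction there was -0.19 ± 0.18 and did not pass (adjusted p = 0.597). The response of Pdgfc was larger with PRMT1 siRNA than with control siRNA, by 0.57 (1.29 ± 0.065 against 0.72 ± 0.064, adjusted p = 0.00985). For Pdgfc the groups with TGF-beta stood at 148 and 148 CPM with PRMT1 siRNA and at 147 and 149 CPM with control siRNA, so the difference lay in the cells without TGF-beta, at 59.4 and 61.7 CPM against 88.0 and 91.6 CPM.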

How the results depend on the processing

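The 32 called member responses to TGF-beta gave 384 values under the alternatives, of which 380 kept their direction and call, 4 lost the call and 0 turned round; the losses were Pdgfc, Fgfr1 and Fgf2 under p53 siRNA with only the groups of the contrast (adjusted p = 0.0697, 0.0928 and 0.132) and the Pdgfa loss given in the report. The effects of the siRNAs moved more. The share of all tested genes called moved as well. For both siRNAs without TGF-beta it was 4.45% in the main model, 9.2% with length offsets and 16 libraries and 4.25% with only the groups. For p53 siRNA with TGF-beta it was 5.21% in the main model, 11.9% without the low-count filter and 0% with only the groups. For the PRMT1 siRNA interaction it was 2.08%, 7.69% and 32.3% in the same order. The cause was not tested, and the coefficient of variation between replicates, common to all genes, was 0.0604 over 15 libraries against 0.114 over 16. In the order both siRNAs, p53 siRNA and PRMT1 siRNA, members called without TGF-beta numbered 2, 1 and 1. They numbered 4, 5 and 3 with 15 libraries, 5, 5 and 2 with length offsets and 15 libraries, and 4, 2 and 1 with length offsets and 16 libraries. Without the low-count filter, or with only the groups of the contrast, they numbered 1, 2 and 1, and with DESeq2 2, 2 and 1. With TGF-beta they numbered 5, 4 and 3, 8 for both siRNAs with length offsets and 15 libraries, and 0 for p53 siRNA with only the groups of the contrast. For p53 siRNA added to PRMT1 siRNA, the 1 member without TGF-beta became 2 with 15 libraries, length offsets and 16 libraries, only the groups of the contrast, or DESeq2, and 4 with length offsets and 15 libraries. With TGF-beta the 1 member became 3 without the filter or with length offsets and 16 libraries, 4 with 15 libraries with or without length offsets, 5 with only the groups, and 2 with DESeq2. The interactions, again in the order both siRNAs, p53 siRNA and PRMT1 siRNA, had 1, 0 and 1 members called. They had 3, 1 and 2 without the filter, 4, 3 and 3 with 15 libraries, 3, 2 and 3 and 5, 3 and 3 with length offsets and 16 or 15 libraries, 2, 0 and 3 with only the groups, and 2, 2 and 1 with DESeq2. RLE factors changed no count by over 1.5 times. The interaction of Pdgfra with p53 siRNA turned round to 0.37 (adjusted p = 0.0448) with length offsets and 15 libraries, against -0.01, and was -0.42 (adjusted p = 0.0175) without the treated p53 siRNA library numbered 1 and 0.32 (adjusted p = 0.284) without that numbered 2, so its sign depends on which of these libraries is left out.

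Leaving out each library in turn gave, without TGF-beta, 0 to 0 members for both siRNAs, 1 to 1 for p53 siRNA and 1 to 1 for PRMT1 siRNA. With TGF-beta it gave 3 to 4 for both siRNAs, 1 to 5 for p53 siRNA and 0 to 1 for PRMT1 siRNA. It gave 0 to 0 for p53 siRNA added to PRMT1 siRNA, without and with TGF-beta, and 1 to 1, 0 to 5 and 0 to 1 for the interactions of both siRNAs, p53 siRNA and PRMT1 siRNA. A lone library is assumed there to vary like the other groups. The share of all tested genes called also fell in these fits, except in some that left out a treated p53 siRNA library. The lost member calls are therefore not particular to the members.

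Replicate numbers did not pair the samples: deviations of same-numbered libraries correlated at -0.401 to 0.246 over 28 pairs of groups. With the replicate number as a block, members called were 1 for both siRNAs without TGF-beta, 1 for PRMT1 siRNA with TGF-beta, 2 for p53 siRNA with TGF-beta and 0 for p53 siRNA added to PRMT1 siRNA with TGF-beta; other counts were within 1.5 times. At 0.516 to 2.89 CPM, Pdgfd is the member that depth limits most.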
